A study of Gorilla gorilla gorilla with 14 samples.

Results

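Within 5 large stretches of the gorilla genome, most open chromatin regions of cerebral organoid cells gave lower ATAC-seq counts in 7 libraries than in the other 7 libraries of the same study. The stretches, called domains here, were chr12:121616856-125058253 (3.44 Mb), chr10:125550655-127224520 (1.67 Mb), chr2B:11052101-12911945 (1.86 Mb), chr1:911109-1649855 (0.739 Mb) and chr6:63497349-65317984 (1.82 Mb), in gorGor6 positions. They held 484 of the 204249 regions of the count table: 203 on chr12, 127 on chr10, 58 on chr2B, 49 on chr1 and 47 on chr6. The domains were picked because their regions were lower in the second run of libraries. That difference is therefore only described below, and its counts of called regions are not read as a test. Comparisons between cell types that both runs held did not enter the choice and were tested. The same holds for the test of whether the difference between the runs varied by cell type. The comparison of basal with apical radial glia was tested too. It depends on the difference that chose the domains, since basal radial glia were in the second run alone.

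ATAC-seq measures accessible chromatin by letting a transposase cut open DNA and insert sequencing adapters. The libraries came from cells sorted from gorilla (Gorilla gorilla gorilla) cerebral organoids at week 8, all grown from 1 induced pluripotent stem cell line, GC1. No treatment and no genetic change was labelled in any group. There were 4 groups. Apical radial glia (aRG) are neural stem cells with contact to the ventricle, and basal radial glia (bRG) are related stem cells without it. Basal intermediate progenitors (bIP) divide to make neurons (N). By the library numbers in the labels, the libraries fall into 2 runs, called series here. Replicates 1 and 2 of aRG, 1 to 3 of bIP, and 1 and 2 of N made up the first series. The second series was made up of replicate 3 of aRG, 4 and 5 of bIP, 3 and 4 of N, and both replicates of bRG. What else distinguished the 2 series is not given in the labels. Since separate cultures are not mentioned for the libraries of a group, a p-value covers the spread between these samples alone, which may be technical.

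Mammalian chromosomes are organised in long blocks of gene-rich, open chromatin and of gene-poor chromatin that is compacted and carries repressive marks. A region can be inaccessible because of the state of its own promoter or enhancer, or because it lies in a block that is closed as a whole. The compacted state can be passed on through cell division, while enhancers within open blocks change as progenitors become neurons.

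Totals over all regions ran from 12834983 to 26660427 counts per library. A count of 3, taken as the detection floor, corresponded to between 0.113 and 0.234 CPM (the count scaled to a common library size). Marker promoters followed the sorted cell types in part. The promoter of SOX2, a radial glial transcription factor, was at 59.3 ± 1.59 CPM in the 3 aRG libraries (mean ± SD), 49.0 ± 3.71 in the 2 of bRG, 32.9 ± 7.73 in the 5 of bIP and 9.60 ± 1.56 in the 4 of N. The promoter of EOMES, which marks intermediate progenitors, was highest in bIP at 83.0 ± 19.8 CPM, and that of NEUROD2, a neuronal factor, in N at 38.6 ± 9.25. NEUROD6, STMN2 and MAPT also had their highest means in N, while BCL11B (23.6 CPM in bIP, 20.3 in N) and MYT1L (45.7 and 43.3) had theirs in bIP. Of the 4 bRG markers, 3 had lower means in bRG than in aRG: HOPX was at 20.9 ± 3.32 against 25.2 ± 3.30 CPM and FAM107A at 15.7 ± 2.22 against 17.1 ± 1.96. PTPRZ1 was at 27.6 ± 3.72 against 28.3 ± 1.27 CPM. TNC was at 24.2 ± 3.02 against 22.6 ± 2.69, higher in bRG by less than its SD. No promoter region was listed for the choroid plexus marker TTR, the microglial markers AIF1 and PTPRC or the pluripotency markers POU5F1 and NANOG. CLIC6, COL1A1 and TWIST1, which mark choroid plexus and mesenchyme, were measured and differed by -0.24, 0.19 and 0.12 (log2) between the series. Series differences of the measured markers lay between -0.24 and 0.56.

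The domains were less accessible in the second series in all 3 cell types that both series held. Summed over the 203 regions of the chr12 domain, the first series ranged from 113 to 152 CPM and the second from 36.1 to 58.0. On chr10 the sums were 242 to 430 CPM in the first series and 62.4 to 140 in the second. On chr2B they were 50.6 to 139 against 7.58 to 17.2, on chr1 115 to 136 against 14.5 to 27.1, and on chr6 74.4 to 154 against 16.1 to 44.5. In none of the 5 domains did the sums of the 2 series overlap. The means of the first series were higher than those of the second by 2.17-fold in aRG, 2.71-fold in bIP and 3.73-fold in N on chr12. The folds were 3.85, 2.55 and 3.82 on chr10, 7.91, 6.71 and 7.72 on chr2B, 5.43, 5.63 and 8.04 on chr1, and 4.64, 4.07 and 2.97 on chr6, in the same order. The fold in aRG rests on 1 library of the second series. The bRG libraries exist in the second series alone. Their sums, set against aRG replicate 3, were 57.0 and 58.0 against 53.7 CPM on chr12, 65.2 and 62.4 against 65.0 on chr10, and 25.4 and 20.9 against 22.6 on chr1. On chr2B (16.8 and 15.2 against 12.99) and chr6 (22.1 and 22.4 against 17.3) both bRG libraries were higher than that aRG library.

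**Figure D1:**
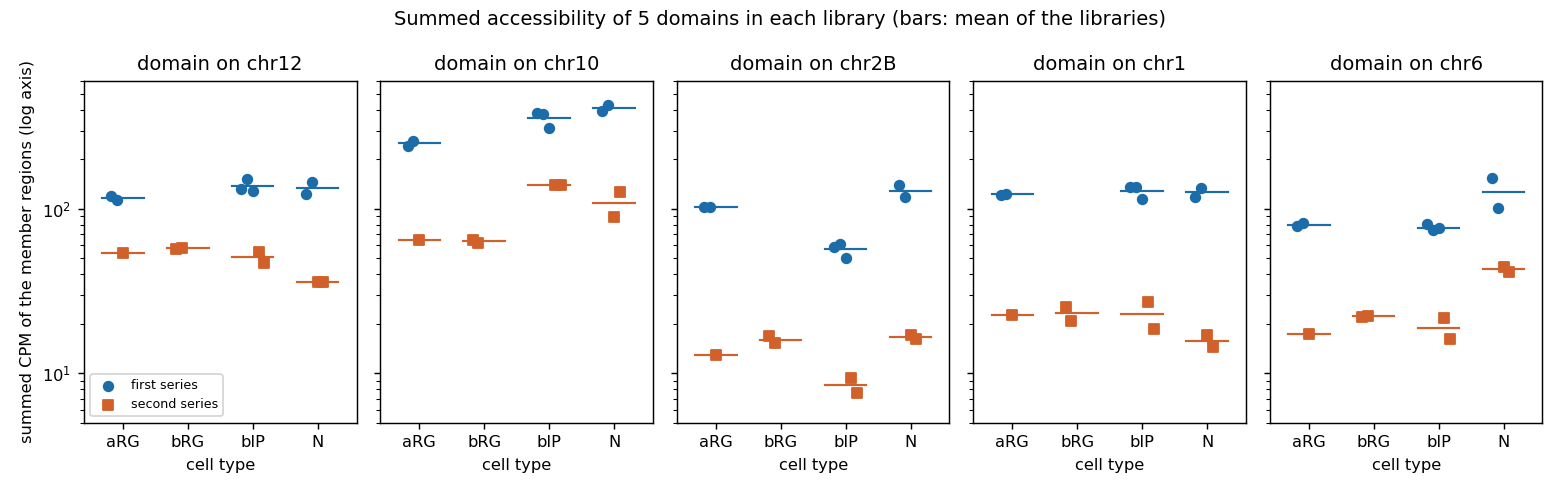
Summed CPM (log axis) of the member regions of each domain in each library, by cell type, with circles for the first and squares for the second library series and bars for the mean of the libraries. In all 5 domains the squares lie below the circles, with sums of 36.1 to 58.0 against 113 to 152 CPM on chr12 and 7.58 to 17.2 against 50.6 to 139 CPM on chr2B.

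Of the 484 members, 345 had counts enough for the model of all regions: 81 of 203 on chr12, 123 of 127 on chr10, 51 of 58 on chr2B, 47 of 49 on chr1 and 43 of 47 on chr6. Elsewhere in the genome 98.4% of regions had. A region may have passed through the first series alone, so the 345 do not stand for all members. Their median second minus first difference was -2.52 (log2), with quartiles of -3.28 and -1.68 and a range from -5.37 to 0.16. Over all 200931 regions in the model the median was 0.02. By domain the medians were -2.59 on chr12, -2.53 on chr10, -2.58 on chr2B, -2.90 on chr1 and -1.91 on chr6. Within cell types the members' medians were -1.95 in aRG, -2.54 in bIP and -2.62 in N. At an adjusted p under 0.05, 321 of the 345 were lower in the second series, where 6.49% of all regions were, and 0 were higher, where 9.35% of all regions were. Since this contrast chose the domains, these counts follow from that choice and are not a test. The shares of all regions are no background for them, and nothing is read from these counts. In 150 of the 484 members every library of the first series lay above every library of the second, as in 0.429% of all regions of the table, and nothing is read from this count either.

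Among the tested members the median decrease was similar at each level, but members too weak for the model are not covered. The levels include the counts that chose the domains. Tested members in the lowest, middle and highest tercile of mean level had medians of -2.35, -2.58 and -2.44. The 329 tested members farther than 1000 bp from their listed gene had a median of -2.52. The 16 tested promoter members, listed within 1000 bp of a gene, had one of -1.93.

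The change was sharp at some edges and gradual at others. The outermost tested regions inside the 5 domains differed by between -3.28 and -1.01, and the nearest tested regions outside by between -1.62 and -0.21. On chr10 the first region inside the lower edge, chr10:125550655-125551057, differed by -3.28 and the nearest outside, 57531 bp away near GLRX3, by -0.998. At the upper edge of the chr1 domain, chr1:1649273-1649855 inside differed by -1.46 and chr1:1651666-1652087, 1811 bp outside and 1569 bp from AJAP1, by -0.72. The upper edge on chr6 showed no step, with -1.01 inside and -0.99 outside. Flanks as long as the domain itself had medians of -0.01 and -0.18 around the chr12 domain and -0.02 and -0.15 around chr10, below and above. They were -0.49 and -0.27 around chr2B, -0.10 and -0.49 around chr1, and -0.89 and -0.25 around chr6. The lower flank of the chr6 domain thus shared part of the difference, with 32 of 77 tested regions below -1. Near the upper edge on chr12 the decrease also ran past the domain. The nearest tested region outside differed by -1.62, against -1.99 inside, and 28 of 247 tested regions of that long flank lay below -1.

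**Figure D2:**
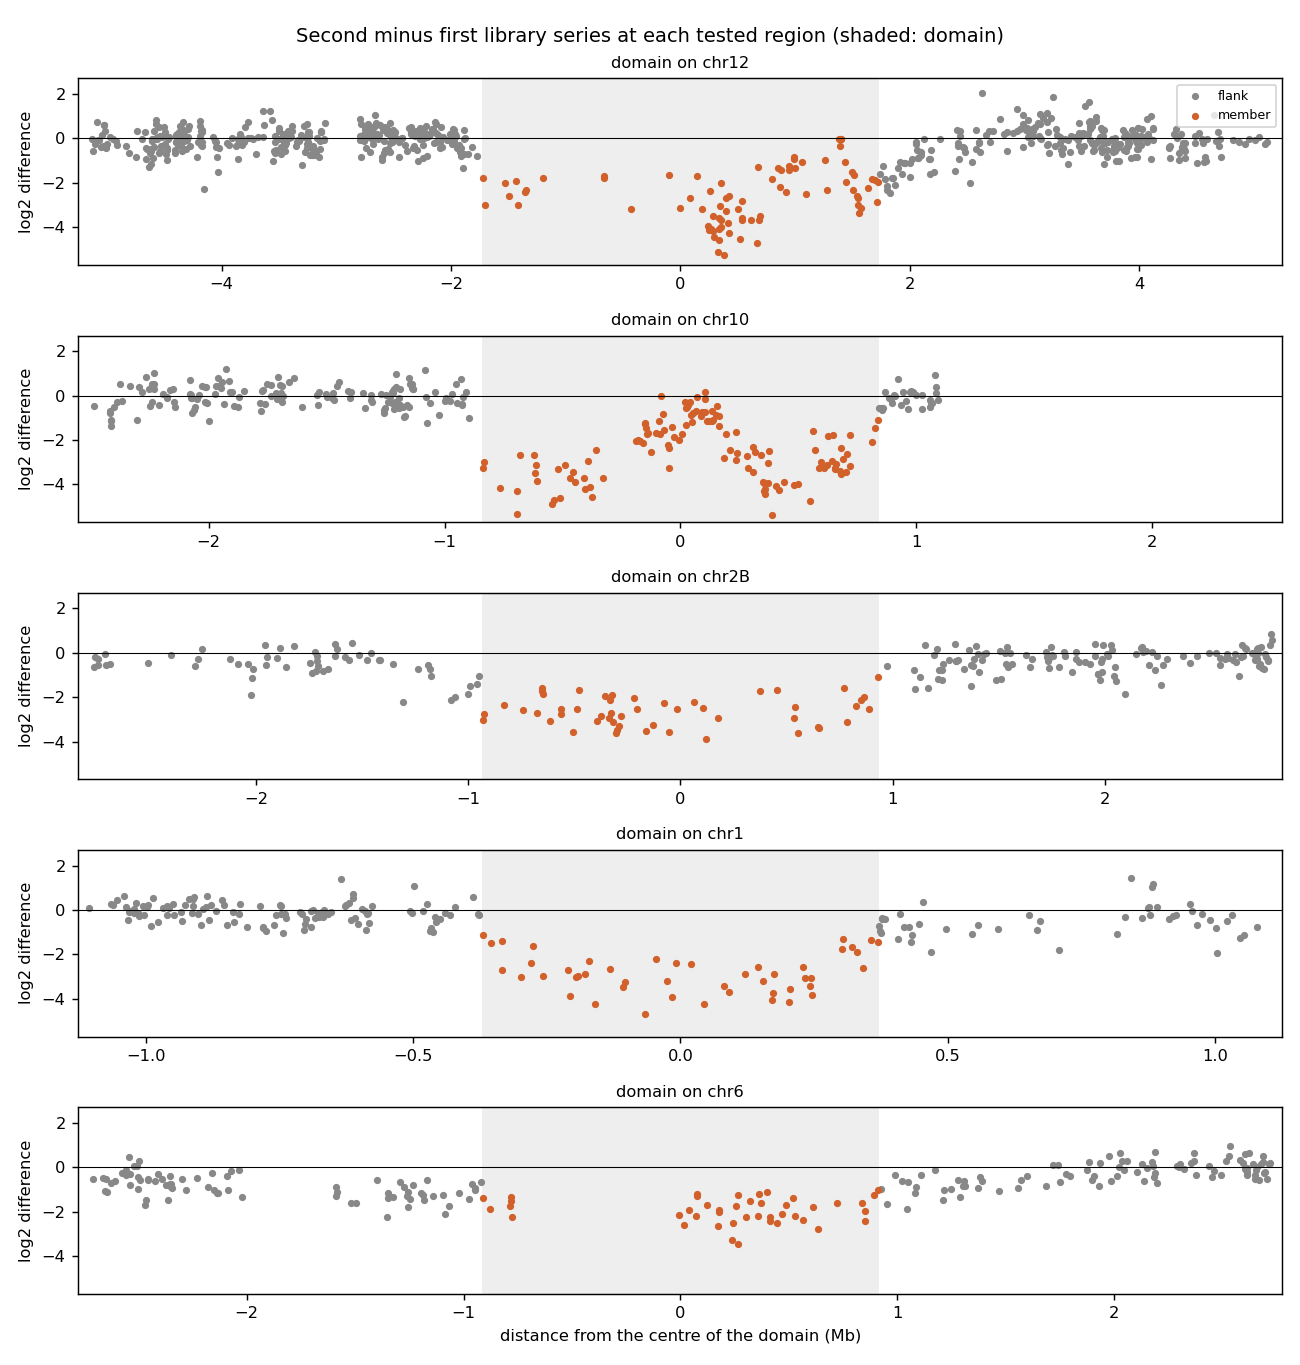
Second minus first series log2 difference of each tested region against its distance from the centre of the domain in Mb, for each domain (shaded, orange points) and its flanks (grey points). The members lie mostly between -1 and -5, and in the chr12 and chr10 domains a group of points rises to near 0 inside the shaded part.

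Seen along the genome, the domains were the extreme of a wider distribution. In 5110 windows of 500 kb with at least 10 tested regions, 95% of the window medians lay between -0.38 and 0.36. The 10 lowest windows all held members, as did 15 of the 20 lowest. Of 26 windows with a median under -1, 16 held members. A window was counted from 1 member on, and 9 of the 18 windows with members held members alone. Some of the low windows held few: 1 of 27 tested regions from chr6:63000001 (median -1.23), 4 of 30 from chr12:125000001 (-1.30) and 12 of 35 from chr1:1500001 (-1.08). The lowest without members had a median of -1.86. Windows with a median above 1 numbered 10, and none of these held members. The highest windows, with medians of up to 2.63, lay at the start of chromosome 3. Since the domains were picked by these values, the ranks are a description.

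**Figure D3:**
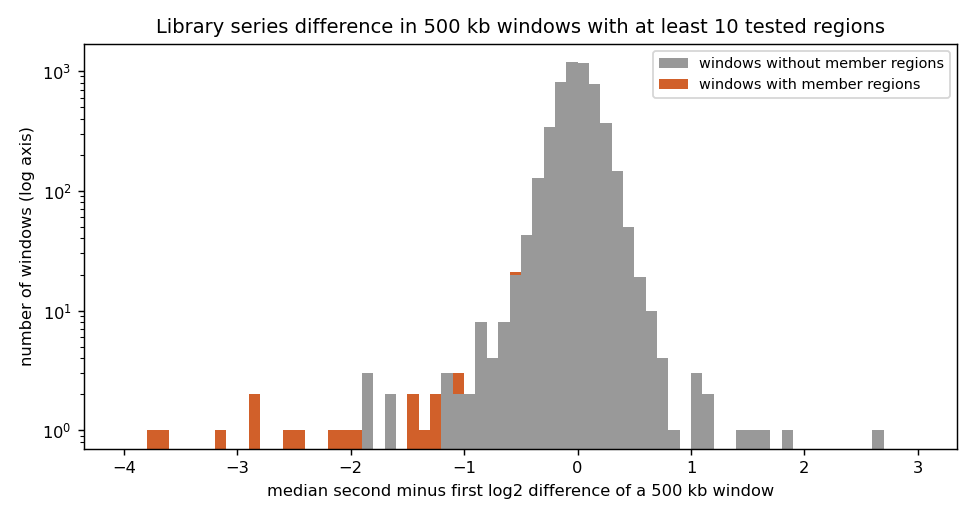
Number of 500 kb windows (log axis) by their median second minus first series log2 difference, for windows with member regions (orange) and without (grey). Of the windows, 95% lie between -0.38 and 0.36, and the 10 lowest all hold member regions.

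Few of the genes listed for the members were protein-coding. The count table names a closest gene for each region, and the members were listed to 90 genes, most of them long non-coding RNAs and pseudogenes. In the RefSeq table of another gorilla assembly, 6 of the 90 (6.67%) matched a protein-coding gene, against 33.0% of the 39210 other genes listed in the count table. The 6 were TMEM132C, SLC15A4 and GLT1D1 on chr12, TCERG1L on chr10, GYPC at the edge of the chr2B domain and AJAP1 at the edge of the chr1 domain. They were the closest genes of 41 members. The nearest protein-coding genes listed on the outer sides were TMEM132B and TMEM132D on chr12, GLRX3 and PPP2R2D on chr10, CNTNAP5 and GYPC on chr2B, AJAP1 on the upper side on chr1, and PHF3 and ADGRB3 on chr6. Of the members, 4.75% lay within 1000 bp of their listed gene, against 10.1% of the other regions, and the median distance was 33500 bp against 20849 bp. Member and other regions had similar widths, with medians of 817 and 859 bp. Regions were sparser in the domains than on the rest of the chromosome: 25.8 against 78.1 per Mb on chr6, 31.2 against 74.4 on chr2B, 59.0 against 77.8 on chr12, 66.3 against 82.5 on chr1 and 75.9 against 81.5 on chr10.

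The domains were single blocks in the human and chimpanzee positions of the count table as well. Their members lay in hg38 at chr12:125698190-129150297, chr10:130263303-131871597, chr2:124834129-126615433, chr1:3910694-4650803 and chr6:65163268-66958743. The order of neighbouring members was the same as in gorilla on chr12, chr2B, chr1 and chr6. On chr10, 114 neighbouring pairs kept their order and 11 were reversed.

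The deposited peak sets, 1 per cell type, were thin in the domains. Peaks of the aRG set touched 12.9% of the 426 members off chr2B, against 36.8% of the other regions off chromosomes 2A, 2B and X. For bRG the shares were 1.64% against 36.3%, for bIP 3.76% against 36.1% and for N 20.9% against 37.2%. The set with no library of the first series, bRG, touched the fewest members. Since the domains were picked by low counts in the second series, these shares are a description. The chr2B domain was not analysed here for peaks.

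The chr12 domain, the longest, was also the one with the weakest regions, with a median mean level of 0.175 CPM over its members. Its strongest members surround SLC15A4, which encodes a histidine and peptide transporter of lysosomes. The SLC15A4 promoter, chr12:124738776-124740617, read 20.7 and 21.6 CPM in aRG replicates 1 and 2, 20.6, 20.5 and 20.5 in bIP replicates 1 to 3, and 17.8 and 27.04 in N replicates 1 and 2. In the second series it read 20.2 in aRG replicate 3, 21.3 and 20.003 in bRG, 24.2 and 26.2 in bIP replicates 4 and 5, and 12.6 and 19.9 in N replicates 3 and 4. The 2 series overlapped, with means of 21.2 and 20.6 CPM and a difference of -0.05 ± 0.15 (log2, SE). By cell type the difference was -0.06 in aRG, 0.30 in bIP and -0.46 in N. In ATAC-seq counts, less open DNA and fewer copies of the DNA per cell cannot be told apart.

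Around this promoter lay a short stretch with little decrease over all cell types. From chr12:124719062 to 124740617 (21.6 kb), 4 tested regions had a median series difference of -0.04, while the other 77 tested regions of the domain had one of -2.62. In N the 4 regions had a median of -0.60, and their sums, 25.2 and 34.4 CPM in the first series and 17.7 and 24.4 in the second, did not overlap. The median was -0.09 in aRG and 0.10 in bIP. Without the promoter, the chr12 sums were higher in the first series by 2.85-fold in aRG, 4.58-fold in bIP and 5.65-fold in N. The promoter of GLT1D1, a glycosyltransferase-like gene that follows SLC15A4, is the region chr12:124769627-124770970. It read 2.41, 2.93, 3.18, 1.55, 0.833, 2.61 and 2.72 CPM in the first series, in the order aRG, bIP, N. In the second it read 1.81 in aRG, 1.11 and 1.12 in bRG, 0.707 and 0.821 in bIP, and 0.913 and 1.36 in N. The 2 series overlapped, since bIP replicates 2 and 3 lay below aRG replicate 3, and the difference was -1.09 ± 0.26. With the replicate number as a block in the model it was 0.34. In that model the series term rests on replicate 3, where bIP is the only library of the first series, so this value is not read as a reversal. With 1 library left out the difference ran from -1.28 to -0.85. The promoter of TMEM132C, which encodes a single-pass membrane protein, was weak in both series at 0.573 and 0.212 CPM.

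Farther from SLC15A4 the chr12 domain fell to the floor. The promoter region of the non-coding RNA LINC02411, chr12:123583264-123584053, read 2.77 and 2.62 CPM in aRG replicates 1 and 2, and 1.29, 1.23 and 0.833 in bIP replicates 1 to 3. It read 0.468 and 0.204 in N replicates 1 and 2. In the second series it held between 1 and 4 counts in each library, 12 in all against 192 in the first. The 10 members listed to LINC02411 had a median difference of -4.11 and the 10 listed to AC025160.1 one of -3.49. Their surroundings held the lowest values of the domain, down to -5.27.

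The chr10 domain had the highest sums of the 5 domains. Its lead gene is TCERG1L. The TCERG1L promoter, chr10:126619894-126623667, read 2.81 and 3.62 CPM in aRG replicates 1 and 2, 13.999, 14.3 and 8.26 in bIP replicates 1 to 3, and 12.2 and 11.3 in N replicates 1 and 2. In the second series it read 0.637 in aRG, 0.455 and 0.515 in bRG, 1.77 and 1.06 in bIP, and 1.44 and 1.69 in N. No library of the second series reached the lowest of the first, and the difference was -2.90 ± 0.21. In both series the promoter was lower in aRG than in bIP and N. The bIP minus aRG difference was 1.77 ± 0.26 (edgeR quasi-likelihood test, Benjamini-Hochberg adjusted p = 2.81e-06).

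The chr10 domain held a stretch with a smaller decrease than the rest of the domain. Between chr10:126405179 and 126543715 (138.5 kb), from the promoter of the antisense RNA TCERG1L-AS1 toward TCERG1L, 23 tested regions had a median series difference of -0.72. The other 100 tested regions of the domain had one of -2.96. Within the stretch, 7 of the 23 lay above -0.5. The TCERG1L-AS1 promoter, chr10:126405179-126406098, averaged 3.10 CPM in the first and 2.24 in the second series, a difference of -0.28 ± 0.18. The stretch summed to 49.5 and 54.1 CPM in aRG replicates 1 and 2 and to 27.2 in replicate 3. In bIP it summed to 107 to 128 CPM in replicates 1 to 3 and to 87.6 and 93.5 in replicates 4 and 5. In N it summed to 123 and 107 CPM in replicates 1 and 2 and to 42.4 and 58.6 in replicates 3 and 4. The bIP sums thus nearly met between the series, while the N sums stood apart. Beside the stretch, at chr10:126302559-126303934 near MIR378C, 1 more region differed by -0.04, with 2.93 and 2.63 CPM.

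**Figure D4:**
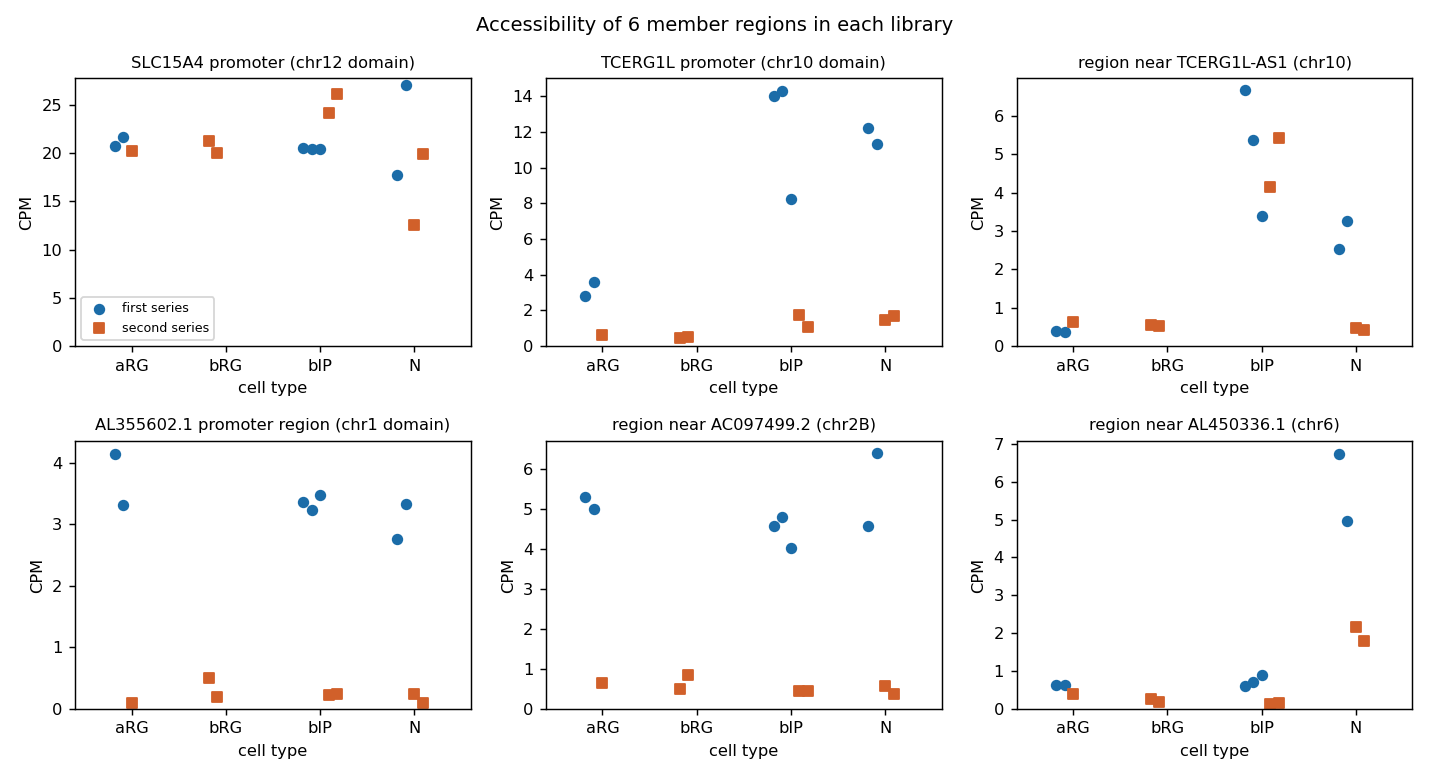
CPM of 6 member regions in each library by cell type, with circles for the first and squares for the second series and each panel on its own axis from 0. The SLC15A4 promoter stayed between 12.6 and 27.04 CPM in both series, while the TCERG1L promoter read 2.81 to 14.3 CPM in the first series and at most 1.77 CPM in the second.

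The strongest distal regions of chr10 lay near TCERG1L-AS1. The region chr10:126353355-126354451 read 30.2 and 31.9 CPM in aRG replicates 1 and 2 and 9.41 in replicate 3. In bIP it read 38.9, 40.2 and 25.3 in replicates 1 to 3 and 13.4 and 16.8 in replicates 4 and 5. In N it read 10.8 and 12.6, then 3.70 and 4.55. In each cell type the second series lay below the first, and N of the first series lay below bIP of the second. The difference was -1.42 ± 0.16. The promoter region of LINC02646, chr10:125778929-125779554, near the lower edge, went from 106 counts over the first series to 8 over the second.

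The chr2B domain lies between CNTNAP5, a neuronal adhesion gene of the neurexin family, and GYPC, a red cell membrane glycoprotein. It had the deepest fall in its sums in aRG and bIP and no protein-coding promoter. Its leading region, chr2B:11691200-11691833 near AC097499.2, read 5.30 and 4.99 CPM in aRG, 4.58, 4.79 and 4.02 in bIP and 4.56 and 6.39 in N of the first series. In the second it read 0.637 in aRG, 0.506 and 0.843 in bRG, 0.442 and 0.435 in bIP, and 0.576 and 0.375 in N. The highest second library lay well below the lowest first, and the difference was -3.31 ± 0.22. Its differences between bIP and aRG (-0.26 ± 0.24) and between N and bIP (0.23 ± 0.23) did not pass the test.

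The chr1 domain ends next to AJAP1, which encodes a protein of adherens junctions. Its median was the lowest of the 5 domains. The promoter region of the non-coding RNA AL355602.1, chr1:1482980-1483850, read 2.77 to 4.15 CPM in the first series, with 467 counts in all. In the second it read 0.094 to 0.506 CPM, with 33 counts, a difference of -4.16 ± 0.29. The strongest member, chr1:1399965-1402053, 13414 bp from LINC01777, read 37.4 and 35.3 CPM in aRG replicates 1 and 2, 16.6, 16.4 and 12.9 in bIP replicates 1 to 3, and 7.41 and 6.18 in N replicates 1 and 2. In the second series it read 5.83 in aRG, 6.12 and 4.78 in bRG, 3.71 and 1.45 in bIP, and 0.576 and 0.328 in N. It fell from aRG to bIP to N in both series.

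The chr6 domain had no protein-coding gene among its listed genes. Its median series difference over the tested members, -1.91, was the smallest of the 5, while its sums in aRG and bIP fell more than those of chr12. Without the SLC15A4 promoter, chr12 fell by more in bIP, 4.58-fold against 4.07-fold on chr6. In aRG it still fell by less, 2.85-fold against 4.64-fold. The nearest coding neighbours of the chr6 domain lay 1.99 Mb below (PHF3) and 1.69 Mb above (ADGRB3, an adhesion receptor of synapses). Its strongest member, chr6:63527384-63528914, listed 110142 bp from AL365217.1, read 7.98 and 9.54 CPM in aRG, 8.51, 6.21 and 6.59 in bIP and 14.03 and 11.4 in N of the first series. In the second it read 1.42 in aRG, 2.22 and 2.67 in bRG, 1.99 and 1.26 in bIP, and 4.90 and 5.91 in N. The 2 series did not overlap, and N was highest in each.

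Differences between cell types were also tested inside the domains. With the library series as a term in the model, 99 of the 345 tested members were higher in bIP than in aRG (24% of all regions were) and 44 were lower (20.9% of all). Between N and bIP, 102 were higher in N (28.8% of all) and 51 were lower (26.4% of all). These shares of the members, read against all regions, were close to the background for higher calls and below it for lower calls. Put together, 32 members rose at both steps, 23 rose in bIP and fell in N, 12 fell at both steps, 1 fell and then rose, and 117 passed neither test. Another 69 changed only at the second step upward and 16 downward, and 44 and 31 only at the first. The shares of all regions with these joint patterns were not computed, so nothing is read from the joint counts.

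By domain the counts were as follows, to be set beside shares of all regions of 24% higher and 20.9% lower in bIP, then 28.8% and 26.4% in N. On chr10, 53 of 123 tested members were higher and 10 lower in bIP than in aRG, and 44 higher and 22 lower in N than in bIP. On chr2B, of 51, 8 were higher and 14 lower in bIP, and then 24 higher and 4 lower in N. On chr6, of 43, 8 were higher and 8 lower in bIP, and 18 higher and 2 lower in N. On chr12 the counts were 19 and 8 of 81, then 9 and 12, and on chr1 11 and 4 of 47, then 7 and 11. Whether the domains differed in these counts was not tested. The mean sums in aRG, bIP and N kept their order in both series on chr2B, with 103, 56.7 and 129 CPM in the first and 12.99, 8.45 and 16.7 in the second. They did not on the other domains. On chr10 they were 250.3, 357 and 413 CPM in the first series and 65.0, 140 and 108 in the second, and on chr12 117, 138 and 135, then 53.7, 50.8 and 36.1. On chr1 they were 122, 129 and 127, then 22.6, 22.8 and 15.8. On chr6, N was highest in both, with 80.1, 77.1 and 128, then 17.3, 19.0 and 43.1. Some of these gaps were within the spread, so the changes of order on chr1 and chr6 are not settled. On chr1 the SDs of the first series were 11.8 in bIP and 11.3 in N. On chr6 the SDs in bIP were 3.16 and 4.07, and aRG of the second series is 1 library.

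Of the 4 members higher in bIP than in aRG with the smallest p, 3 lay on chr10 in the TCERG1L-AS1 stretch and 1 on chr1. The region chr10:126524942-126526052, 96682 bp from TCERG1L, read 0.474, 0.686 and 0.637 CPM in aRG and 11.8, 12.6, 11.03, 6.23 and 7.34 in bIP. It read 3.78, 3.87, 0.721 and 1.03 in N, and 0.455 and 0.609 in bRG. It rose by 4.09 ± 0.34 from aRG to bIP (edgeR adjusted p = 1.25e-09) and fell by 2.11 ± 0.25 from bIP to N (edgeR adjusted p = 1e-07). In the region chr10:126412926-126414120, 7057 bp from TCERG1L-AS1, aRG read 1.23, 1.43 and 1.67 CPM and bIP 15.1, 13.7, 11.8, 9.11 and 9.71. The difference was 3.04 ± 0.25 (edgeR adjusted p = 1.08e-09). The region chr10:126542098-126543715 read 1.74, 1.87 and 1.42 CPM in aRG and 10.2 to 11.5 in bIP, a difference of 2.75 ± 0.24. On chr1, chr1:945860-947216 near LINC01345 read 0.735 to 0.949 CPM in aRG and 8.82, 10.3, 7.77, 3.23 and 2.22 in bIP, a difference of 2.92 ± 0.30. The aRG and bIP libraries did not overlap in any of these regions.

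Other members were lower in bIP than in aRG. The region chr10:126803179-126804437, 180345 bp from TCERG1L, read 16.6 and 17.7 CPM in aRG replicates 1 and 2, 5.52, 5.76 and 3.40 in bIP replicates 1 to 3 and 1.72 and 1.83 in N replicates 1 and 2. In the second series it read 0.883 in aRG, 0.265 and 0.290 in bIP, and held 1 and 2 counts in N. The bIP minus aRG difference was -1.78 ± 0.22 (edgeR adjusted p = 2.67e-07). It did not pass in the second series alone (edgeR adjusted p = 0.0775) or without the series term (edgeR adjusted p = 0.0613). It was 1 of the 4 regions with the smallest p in this direction, and the other 3 lay on chr2B. These were chr2B:11590231-11590727 (-3.07 ± 0.32), chr2B:12767837-12768652 near YWHAZP2 (-2.42 ± 0.26) and chr2B:12104397-12104885 near AC097499.1 (-2.24 ± 0.28). The YWHAZP2 region read 5.77, 6.49 and 0.883 CPM in aRG, 1.36, 1.23, 0.902, 0.177 and 0.0966 in bIP and 5.81, 6.18, 0.528 and 0.610 in N. It dipped in bIP within each series.

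Regions on chr6 and chr10 that were low in bIP were higher in N. The region chr6:64778702-64779848, listed 280798 bp from AL450336.1, read 0.133 to 0.902 CPM in bIP and 6.74, 4.96, 2.16 and 1.78 in N, a difference of 3.18 ± 0.28 (edgeR adjusted p = 8.27e-10). The region chr10:126284107-126285019 near MIR378C read 0.0966 to 0.795 CPM in bIP and 8.11, 8.70, 1.44 and 3.43 in N, a difference of 3.83 ± 0.34. The region chr10:127212914-127214154 rose by 3.00 ± 0.30 and chr6:65243270-65243906 near RNU7-66P by 3.19 ± 0.32. The regions that fell most clearly in N lay on chr10 and included the strong region at chr10:126353355 (-1.70 ± 0.18, edgeR adjusted p = 1.39e-08). The others were chr10:126524942-126526052, chr10:126228810-126229942 near MIR378C (-2.03 ± 0.26) and chr10:126409745-126410230 near TCERG1L-AS1 (-1.996 ± 0.26).

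The 2 comparisons were repeated within each series. In the first series alone, 168 of 322 members that could be tested passed for bIP against aRG (49.9% of all regions) and 180 for N against bIP (52.9% of all). In the second series alone, 24 of 156 passed for bIP against aRG (24.6% of all) and 63 for N against bIP (46.2% of all). The share of 24 in 156 was thus below that of all regions. The fits of the 2 series share no library. Of 154 members tested in both, 119 had a bIP minus aRG difference of the same sign, and 113 an N minus bIP difference. All 23 members that passed in both series for bIP against aRG had the same sign, as did all 51 for N against bIP. Of the 102 that passed in the first series for N against bIP, 86 had the same sign in the second. Across the 154 members the differences of the 2 series had Pearson's r of 0.674 for bIP against aRG and 0.708 for N against bIP. The domains varied: for N against bIP r was 0.888 over 66 members on chr10 and 0.351 over 14 on chr12. On chr12, 6 of those 14 had the same sign in both series, as did 5 of the 8 that passed in the first. Regions of 1 domain are not independent, so these values are descriptions.

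No member differed between bRG and aRG at an adjusted p under 0.05 (edgeR quasi-likelihood test), and 0% of all regions did. At an unadjusted p under 0.05, 52 members and 8197 of all regions did. DESeq2 called 0 members and 7 of all regions. The members' median bRG minus aRG difference was 0.64, against -0.01 over all regions. This contrast rests on aRG replicate 3 and the series term, and the members were chosen on the series difference.

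The size of the series difference itself was also compared between bIP and N. In a model with 1 mean for each cell type and series, the series difference in N minus that in bIP passed at 15 of the 345. It was positive at 3 (4.01% of all regions were) and negative at 12 (4.32% of all). In both directions the share of the members was below that of all regions, so nothing is read from the count. The members' median was -0.27, and that of all regions was 0.12. Of the 12, 7 lay on chr10, and 6 of the 15 lay in the TCERG1L-AS1 stretch, where the median series difference was -0.39 in bIP and -1.01 in N. The region chr10:126477395-126478065 read 6.66, 5.37 and 3.40 CPM in bIP of the first and 4.15 and 5.41 in bIP of the second series, which overlap. In N it read 2.53 and 3.26, then 0.480 and 0.422, which do not. The difference between the cell types was -2.52 ± 0.47 (edgeR adjusted p = 0.00113). The region chr6:63625950-63626815, 10559 bp from AL365217.1, fell more in N (20.7 and 13.7 CPM to 2.64 and 3.89) than in bIP (5.11, 4.34 and 5.48 to 3.45 and 2.51). The difference was -1.66 ± 0.37 (edgeR adjusted p = 0.00437), and it did not pass when only regions with at least 10 CPM in at least 2 libraries were kept (edgeR adjusted p = 0.0576).

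The smallest p came from a region at the floor. At chr10:125921066-125922022, near AC016816.1, N held 146 and 59 counts in the first series and 1 and 1 in the second, while bIP held 11, 5 and 3, then 6 and 2. The fitted difference of -5.68 ± 1.01 (edgeR adjusted p = 0.000665) is set by those few counts, and it did not pass without bIP replicate 4 (edgeR adjusted p = 0.0507). The count of 15 fell to 8 without N replicate 2 and rose to 32 without N replicate 4.

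**Figure D5:**
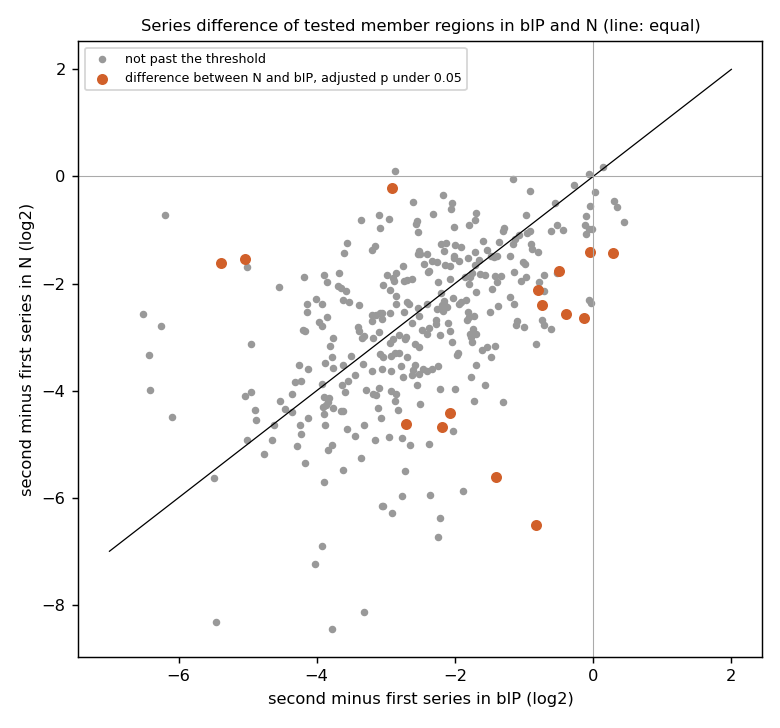
Second minus first series log2 difference in N against that in bIP for each of the 345 tested members, with the line of equal differences and the 15 members whose difference between the cell types passed an adjusted p under 0.05 in orange. Of these, 12 lie below the line and 3 above it.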

How the data were processed

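Bulk ATAC-seq gave 14 libraries of 4 sorted cell types. The authors deposited a table of raw read counts, whole numbers for each library and region. Its region names, per the file headers, give gorGor6, hg38 and panTro6 positions. Starts were taken as counted from 0, since many then equal starts in the peak sets, and are printed here counted from 1. The tools were bcl2fastq 2.20.0 and MACS2, per the submitters' processing notes. The aligner, the version of MACS2, any shift of reads to the cut site and how the consensus was made are not stated in these sources. For peaks, a consensus set for each cell type was deposited, so replicates cannot be compared. Its deposited score, fold enrichment (ratio), −log10 p-value and −log10 q-value entered no comparison.

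Of 218080 rows, 13823 without a gorilla position, all at 0 counts, and 8 repeats were left out. The test was edgeR's (4.0.16, under R 4.3.3) quasi-likelihood test with TMM factors on the 200931 regions that filterByExpr kept. Its model, fitted to all 14 libraries, had a mean for each group and a series term (9 residual degrees of freedom). The comparison of series differences used 1 mean per group and series (7 degrees of freedom). Benjamini-Hochberg adjustment ran over all regions, with a threshold of 0.05. CPM are counts scaled to 1e6 per library with TMM factors. Log2 differences come from the model, with standard errors. They were tested on simulated data first. Counting floors cover counting error only, since PCR copies cannot be told from separate molecules here. The listed distance to a gene was taken as that to its start, which the file does not state. Gene classes came from the RefSeq gene table of NHGRI_mGorGor1-v2.1_pri, of which 6 of 90 listed names matched protein-coding genes and no position was used. No sequence is shown.

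The domains, lists and tests were chosen with earlier results of these data known. Named regions were, per domain, the 3 promoter and 2 distal members with the highest mean CPM, per cell type contrast the 4 with the smallest p in each direction, and for the series difference in N minus that in bIP the 3 with the smallest p. The last tested region inside and first outside each edge were also named. TMEM132C, the LINC02411 and AC025160.1 groups and the stretches around SLC15A4 and TCERG1L-AS1 were picked after their values were seen. Alternatives were other size factors, filters, DESeq2 1.42.0, a replicate block, each series alone and each library left out.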

Additional observations from a re-analysis of the deposited data

Results flagged for a closer look

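At 15 members the series difference in N and that in bIP differed by the test of the difference itself (edgeR quasi-likelihood test, adjusted p under 0.05), with 4.01% of all regions positive and 4.32% negative by the same rule. The shares of the members, 3 positive and 12 negative of 345, were below these. The value is the log2 difference between the series in N minus that in bIP. In the TCERG1L-AS1 stretch on chr10 it was -2.52 at chr10:126477395, -1.37 at chr10:126454246, -2.18 at chr10:126522480, -1.71 at chr10:126427388, -1.28 at chr10:126498661 and -1.32 at chr10:126524942. In bIP these 6 regions differed by between -0.80 and 0.29 between the series, and in N by between -2.65 and -1.42. Their adjusted p ran from 0.00113 to 0.0257.

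Elsewhere on chr10 the value was -5.68 at chr10:125921066 near AC016816.1, which rests on 1 count in each N library of the second series. On chr1 it was -4.22 at chr1:1424693 near LINC01777, -2.34 at chr1:1022111 near AL805961.1 and -2.51 at chr1:1485353 near AL355602.1. On chr2B it was 3.49 at chr2B:11821093 and -1.92 at chr2B:11851532, both near AC097499.2. On chr6 it was -1.66 at chr6:63625950 near AL365217.1, and 3.76 at chr6:64423835 and 2.695 at chr6:64531330, both near NUFIP1P1. The positive values at chr6:64423835 and chr2B:11821093 follow from series differences of -5.38 and -5.04 in bIP, where second series counts were near 0. In 86 groups of bIP and N libraries checked for 1 library far from the rest of its group, 0 were found.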

How the results depend on the processing

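Among cell type comparisons, the counts of members called moved most with the filter and the libraries. For bIP against aRG, 143 members became 16 of 22 tested when at least 10 CPM in at least 2 libraries was asked for, 68 without the series term and 24 in the second series alone. For N against bIP, 153 became 15, 75 and 63. Leaving out 1 library gave 102 to 149 and 110 to 170. For bRG against aRG the count was 0 under every alternative run. The 15 members whose series difference varied between N and bIP became 3 under the stricter filter and 8 to 32 with 1 library left out. DESeq2 called 10 members, all negative, with no adjusted p for 200 members. The first series alone, chosen after seeing the data, gave 168 and 180.

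The median series difference of the chr12 domain became -1.90 with no filter (203 regions), -0.13 under the stricter filter, which left the SLC15A4 promoter alone, -2.13 with the replicate block and -1.49 from summed counts. On chr10 it became -1.34 (13 regions), -2.23 with the replicate block and -1.74 from sums. On chr2B it became -3.26 (1 region) and -2.89 from sums. On chr1 it became -3.11 (5 regions), -2.61 with the replicate block and -2.65 from sums. With 1 library left out the medians ran from -2.85 to -2.34 on chr12, -2.65 to -2.37 on chr10, -2.78 to -2.53 on chr2B, -3.16 to -2.73 on chr1 and -2.16 to -1.74 on chr6. With the replicate block the series term rests on replicate 3, where bIP is the only library of the first series. Other causes were not tested, beyond the fewer regions of the filters. No domain median changed sign under the alternatives run, but 3 of the 21 single-region series differences did, in 8 of 406 recomputed values. With the replicate block GLT1D1 (chr12:124769627) went from -1.09 to 0.34 and AC108704.2 (chr12:124733116) from -0.04 to 0.39. AC108704.2 also ran up to 0.09 and the SLC15A4 promoter up to 0.09 with 1 library left out. Of the 406, 29 moved by more than the spread between replicates.

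Replicate numbers were taken not to pair the libraries, since 7 of 16 same-numbered pairs had a correlation of deviations from the group means over 0.1 (range -0.258 to 0.340). The 6 pairs within the first series ran from 0.140 to 0.340. With deviations from the mean of each group within its series, a check added after seeing the data, 7 such pairs ran from -0.207 to 0.125. With the replicate block the counts were 120 for bIP against aRG and 140 for N against bIP. Of 288 recomputed tests of named regions, 4 no longer passed. They were bIP against aRG at chr10:126803179, without the series term and in the second series alone, and the series difference in N minus that in bIP at chr10:125921066 without bIP replicate 4 and at chr6:63625950 under the stricter filter. Most second series values lay near the floor of 3 counts, which limits what can be seen there.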

Other observations

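Comparisons of human induced and embryonic pluripotent lines have reported large domains that differ in DNA methylation, and the genes TCERG1L, TMEM132C, TMEM132D, DPP6, PTPRT, RBFOX1, CSMD1, FZD10 and TAFA5 are among those named there. These genes were looked up after the values of the domains had been seen, so the values below are descriptions. Both TCERG1L and TMEM132C are members, with median series differences of -2.70 over 31 tested regions and -1.81 over 2. Of the others, RBFOX1 had a median of -1.67 over 3 tested regions, TAFA5 -1.12 over 2 and TMEM132D -0.54 over 4. CSMD1 was at 0.02 over 8 and PTPRT at 0.99 over 6. No region was listed to DPP6 or FZD10. DNA methylation was not analysed here.

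Some stretches outside the domains moved the other way. On chromosome 3 the first 500 kb had a median series difference of 2.63 over 57 tested regions, and the 4 windows that follow had medians of 1.81, 1.57, 1.43 and 1.16. On chromosome 19 the window from 46500001 had a median of 1.63 over 50 regions.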
